A study of Drosophila melanogaster with 14 samples.

Results

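Dynein heavy chain genes that lie outside the Y chromosome were followed in RNA-seq of *Drosophila melanogaster* larval testes. The genes were chosen by their name and their role as heavy chains. The list followed here has 7 such genes, of which 5 are axonemal (*Dhc16F*, *Dhc36C*, *Dhc62B*, *Dhc93AB*, *Dhc98D*) and 2 are cytoplasmic (*Dhc64C* and *btv*). It does not hold every heavy chain gene off the Y: *Dnah3*, *CG3339* and *CG9492* are outside it and are treated further below. Values could be assigned to 6 of the 7 listed genes, among 13776 genes in the quantification. The identifier that the gene table gives for the X-linked *Dhc16F* was not among the identifiers of the quantification, so that no value is given for it.

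Dyneins are motors that move towards the minus ends of microtubules, and the heavy chain is the subunit that hydrolyzes ATP and binds the microtubule. Cytoplasmic dynein-1 carries cargo through the cell, positions nuclei and spindles, and uses the *Dhc64C* product as its heavy chain. The product of *btv* (*beethoven*) is the heavy chain of dynein-2, which moves intraflagellar transport particles back from the tip of a cilium. Axonemal dyneins form the inner and outer arms that make cilia and flagella beat. In *Drosophila*, motile axonemes are known from the sperm tail and from the cilia of chordotonal neurons, and several of the heavy chain genes used for sperm lie on the Y chromosome.

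The study used Lam-KD to ask whether release from the nuclear lamina affects X-linked genes more than autosomal ones, and compared it with control testes. The control testes, from larvae of the third instar, carried the *bam-Gal4-VP16* driver alone. Lam-KD testes carried the same driver with a *UAS-LamDm0-RNAi* hairpin and, in addition, a *UAS-LamC-RNAi* hairpin. The *bam* driver is active in late spermatogonia (SpG) and in spermatocytes (SpCs), while the libraries were made from poly(A)+ RNA of whole testes pooled from many larvae and so hold RNA of other cells as well. In such samples fewer cells of a type and less RNA per cell cannot be told apart. As the hairpin strains entered only the Lam-KD crosses, strain and knockdown cannot be told apart.

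There were 3 control and 3 Lam-KD RNA-seq libraries with between 5651960 and 7437111 expected reads each. The other 8 libraries of the series measure contacts with the nuclear lamina and were not used here. *Lam*, which encodes the B-type lamin, was at 69.7 to 96.9 TPM (a level per transcript length, scaled to the same sum in each library) in control and 14.9 to 16.7 TPM in Lam-KD libraries. *LamC* was at 19.2 to 32.1 and 7.08 to 9.36 TPM. Control replicate 3 stood apart from the other controls: the chi-square of read counts per degree of freedom was 12.6 and 11.9 against them, compared with 5.14 between controls 1 and 2 and 2.31 to 4.08 among the Lam-KD libraries. Log2 fold changes of the listed heavy chain genes and medians of the lists of dynein and cilium genes are therefore given without it as well.

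Levels were considered first. *Dhc98D* (FBgn0013813), an axonemal heavy chain gene on chromosome 3R whose product is inner-arm-like by sequence, had the highest level of the 6. Its TPM was 13.6, 15.7 and 15.3 in control replicates 1 to 3 and 14.7, 14.9 and 12.6 in Lam-KD replicates 1 to 3. Control 1 was the lowest of its group and Lam-KD replicate 3 of its own, and the ranges overlapped. The mean was 14.9 ± 1.12 TPM in control and 14.1 ± 1.24 TPM in Lam-KD testes (SD, n = 3 each). Such a level is a middling one, as 56.1% of all genes had a lower mean TPM in control. The gene took between 1505 and 1881 expected reads per library, which makes it the most deeply covered of the listed genes.

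*Dhc36C* (FBgn0013810), an axonemal heavy chain gene on 2L, was at 10.2, 12.1 and 14.8 TPM in the controls and at 10.6, 11.3 and 10.5 TPM upon Lam-KD. The controls spread widely and enclosed all Lam-KD libraries, with control 1 below and control 3 far above them. The mean was 12.4 ± 2.28 TPM against 10.8 ± 0.453 TPM (SD, n = 3 each), from 1004 to 1397 expected reads per library.

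*Dhc62B* (FBgn0013811), on 3L and axonemal as well, was at 6.21, 7.68 and 7.80 TPM in the controls and at 6.27, 6.46 and 5.77 TPM in Lam-KD libraries. Controls 2 and 3 exceeded every Lam-KD library, whereas control 1 lay within the Lam-KD range. The mean was 7.23 ± 0.887 TPM against 6.17 ± 0.355 TPM (SD, n = 3 each), from 599 to 731 expected reads.

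*Dhc93AB* (FBgn0013812), on 3R, encodes an outer-arm heavy chain known for its part in hearing, where it works in chordotonal neurons. It was all but undetected in testes. Replicate 1 held 2 expected reads in control and 4 in Lam-KD testes, and the remaining libraries held 0. These reads correspond to 0.0166 and 0.0313 TPM, next to a detection floor of 3 reads that lay between 0.0235 and 0.0313 TPM per library. At this depth a level below the floor cannot be told from absence, and no fold change is given. Among the listed axonemal genes, *Dhc93AB* was thus the exception, since the other 3 measured ones were at more than 5 TPM in every library.

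*Dhc64C* (FBgn0261797), on 3L, is the only heavy chain gene of cytoplasmic dynein-1. It was at 3.70, 4.34 and 3.49 TPM in the controls and at 4.81, 5.12 and 4.04 TPM in Lam-KD libraries. Replicates 1 and 2 of Lam-KD exceeded all controls, and Lam-KD replicate 3 fell below control 2, so that the groups overlapped by this pair alone. The mean was 3.84 ± 0.443 TPM in control and 4.66 ± 0.558 TPM upon Lam-KD (SD, n = 3 each), from 388 to 625 expected reads. Only 38.8% of genes had a lower mean level in control testes.

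*btv* (FBgn0023096), on 2L, was weakly expressed. Its TPM was 0.773, 0.846 and 0.592 in the controls and 0.643, 0.687 and 0.571 upon Lam-KD, with control 3 inside the Lam-KD range and the other controls above it. The means were 0.737 ± 0.131 and 0.634 ± 0.0583 TPM (SD, n = 3 each). With 59 to 85 expected reads per library, *btv* was the gene with the least precise values among those tested.

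**Figure D1:**
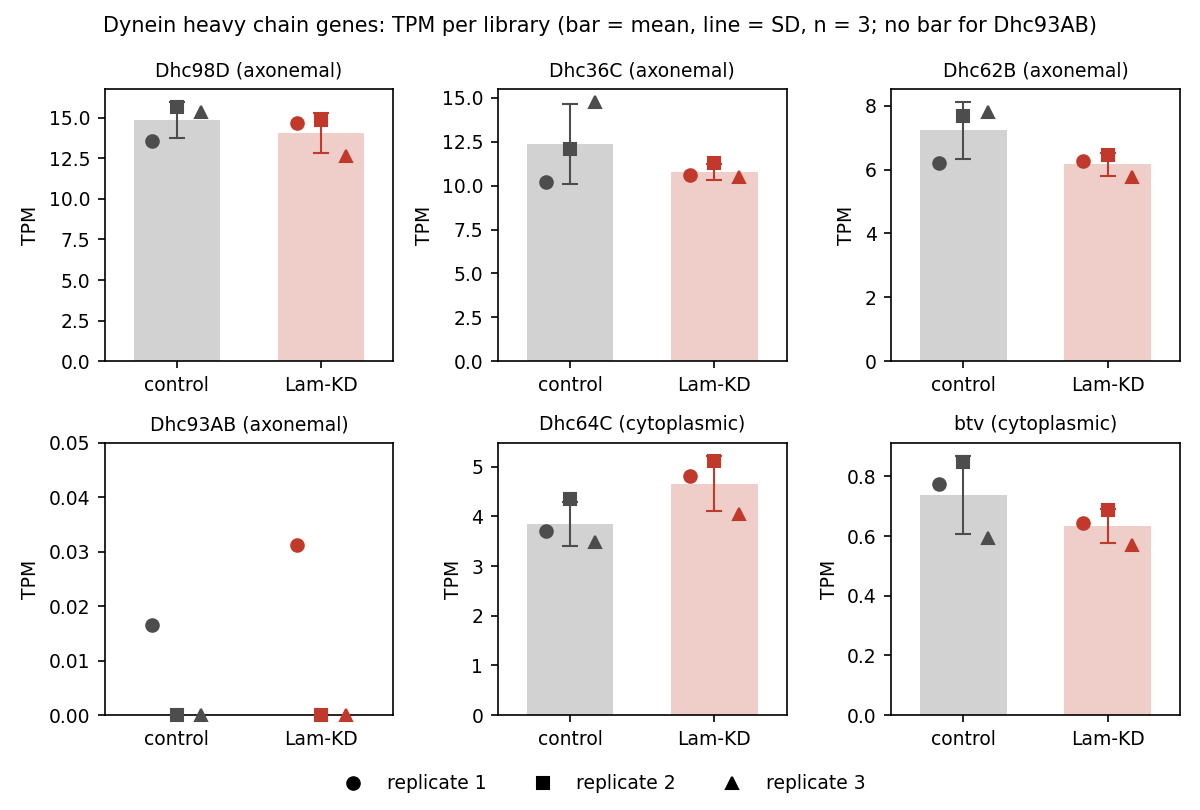
TPM (vertical axis, linear and starting at 0, with a different scale in each panel) of the 6 measured heavy chain genes in 3 control (grey) and 3 Lam-KD (red) libraries. Symbols are replicates, bars are means and lines are SD. In every panel the control and Lam-KD libraries overlap, *Dhc64C* alone of the 5 well detected genes has the higher mean upon Lam-KD, and *Dhc93AB* is at 0 in replicates 2 and 3 of both groups.

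The order of the levels was the same in both groups: *Dhc98D*, *Dhc36C*, *Dhc62B*, *Dhc64C*, *btv*, *Dhc93AB*. Within each of the 6 libraries every gene lay above the next one in this order. Over libraries, the ranges of neighbors were separate, except for *Dhc98D* and *Dhc36C* in control, where the means differed by a ratio of 1.20 and the ranges overlapped. The steps were unequal. In control, *Dhc36C* was 1.71 times the level of *Dhc62B*, *Dhc62B* was 1.88 times that of *Dhc64C*, and *Dhc64C* was 5.21 times that of *btv*. Upon Lam-KD the same 3 ratios of means were 1.75, 1.33 and 7.35. The cytoplasmic chains were therefore below the 3 detected axonemal chains of the list in all libraries. *Dhc64C* was nearer to *Dhc62B* upon Lam-KD than in control.

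Within the measured axonemal genes of the list, the order of the shares was the same in all libraries. *Dhc98D* contributed 40.5 to 46.5% of their summed TPM over the 6 libraries, *Dhc36C* 33.5 to 39.0%, *Dhc62B* 19.8 to 21.7% and *Dhc93AB* at most 0.0993%. The share of *Dhc62B* had the narrowest range of the detected genes, although it was lower in every Lam-KD library than in every control. These shares carry no test, and how often such shares separate the groups for other genes was not determined. The transcript length that the quantification assigned was constant over the libraries for *Dhc36C*, *Dhc62B* and *btv* (12202, 12090 and 12821 bases). For *Dhc64C* it varied from 14194.7 to 14275.1 bases and for *Dhc98D* from 14012.1 to 14589.1 bases, the latter longest in control replicate 3. The estimated mixture of annotated isoforms thus differed slightly between libraries for these genes. The error of these estimates is not given.

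Axonemal and cytoplasmic chains were then set against each other within each library, where differences in depth drop out. The summed TPM of the 4 axonemal genes was 30.0, 35.4 and 37.9 in the controls and 31.6, 32.6 and 28.9 upon Lam-KD. Divided by the TPM of *Dhc64C*, this gave 8.11, 8.17 and 10.9 in the controls and 6.57, 6.37 and 7.16 in Lam-KD libraries. Every Lam-KD library thus had a lower ratio of this sum to *Dhc64C* than every control. Neither the sum nor *Dhc64C* itself separated the groups. The sum leaves out *Dhc16F*, which has no value, and heavy chain genes outside the list. Among the latter, *kl-2* and *Dnah3* had means of 3.55 and 19.4 TPM in control. The mean ratio was 9.05 ± 1.58 in control and 6.70 ± 0.407 upon Lam-KD (SD, n = 3 each). Without control 3 the control mean was 8.14, and both remaining controls still lay above all Lam-KD libraries.

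The same held for each detected axonemal chain of the list on its own. *Dhc98D* was 3.66, 3.61 and 4.40 times the level of *Dhc64C* in the controls and 3.05, 2.90 and 3.13 times upon Lam-KD. For *Dhc36C*, the ratios to *Dhc64C* were 2.76, 2.79 and 4.24 against 2.20, 2.21 and 2.60. For *Dhc62B* they were 1.68, 1.77 and 2.24 against 1.30, 1.26 and 1.43. Control 3 had the highest ratio in each case, and the groups were separate with and without it.

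The cytoplasmic chains differed in the same respect. The TPM of *Dhc64C* was 4.79, 5.13 and 5.89 times that of *btv* in the controls and 7.48, 7.46 and 7.07 times upon Lam-KD, again with no overlap. The 2 cytoplasmic heavy chains therefore did not keep a constant ratio, and relative to *Dhc64C* the level of *btv* was lower upon Lam-KD, as were the axonemal chains. These ratios are descriptions of chosen genes and carry no test. A comparison of 3 with 3 libraries without overlap is not rare here: of 10317 genes, 27.3% had a ratio to *Dhc64C* that was lower in all Lam-KD libraries than in all controls, and 4.74% one that was higher. The *Dhc98D*, *Dhc36C*, *Dhc62B* and *btv* ratios all belong to the former, and they share the denominator.

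**Figure D2:**
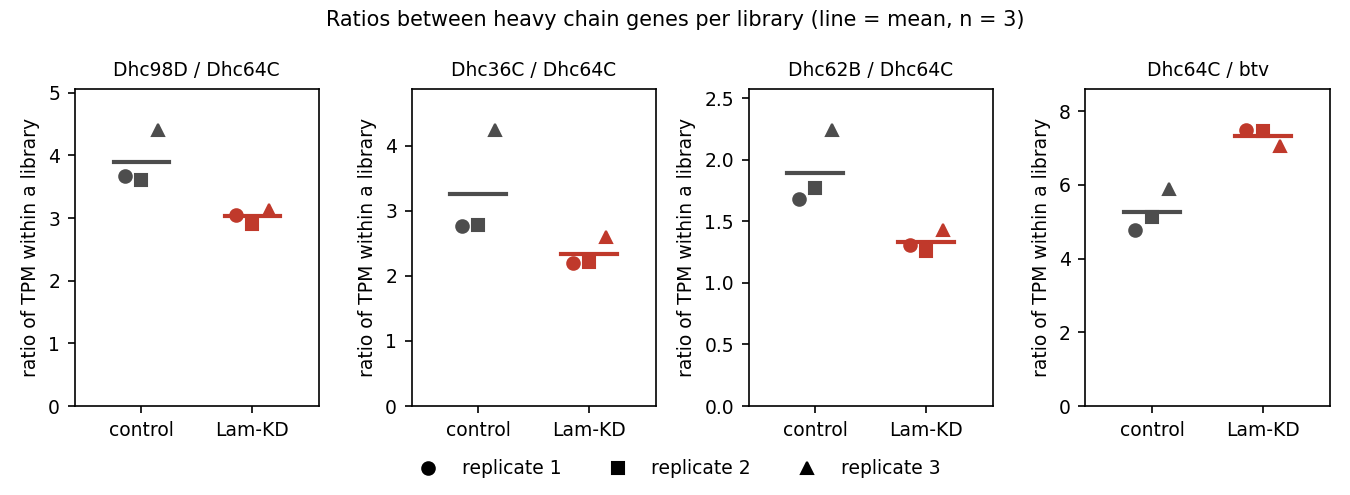
Ratio of TPM between heavy chain genes within a library (vertical axes, linear and starting at 0, 1 panel per pair) in 3 control (grey) and 3 Lam-KD (red) libraries, with symbols for replicates and a line for the mean. The 3 axonemal chains are lower relative to *Dhc64C* in every Lam-KD library than in every control, and the ratio of *Dhc64C* to *btv* is higher.

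Whether single heavy chain genes changed upon Lam-KD was tested with edgeR across all genes. Of the 6 genes with values, 5 reached the minimum of 10 expected reads in 3 or more libraries and entered the test, and *Dhc93AB* did not. None of the 5 was called, that is, none had an adjusted *P* under 0.05 together with a fold change of mean TPM over 1.5, by edgeR or by *DESeq2*. Over all 10318 genes tested, 6.41% were called, 3.19% higher and 3.22% lower. Without the fold threshold the count for the heavy chain genes was still 0, next to 12.6% of all genes (5.31% higher and 7.34% lower). At an unadjusted *P* under 0.05 it was 1 (*Dhc62B*), next to 34.4% of all genes (15.8% higher and 18.5% lower). In none of the 5 were the Lam-KD libraries separate from the controls in TPM, whereas they were for 37.1% of all genes (21.5% higher and 15.6% lower).

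The estimates differed in sign between *Dhc64C* and the others. *Dhc64C* had a log2 fold change of 0.18 ± 0.09 (SE, 95% interval -0.02 to 0.39, adjusted *P* = 0.190, edgeR), and 0.19 without control 3. Its 95% interval thus included no change. *Dhc62B* had the lowest value among the listed genes, -0.33 ± 0.12 (SE, 95% interval -0.59 to -0.07, adjusted *P* = 0.0827, edgeR). Its interval did not include 0, yet the adjusted *P* did not pass, and without control 3 the estimate was -0.19. Without control 1 it was -0.45 with an adjusted *P* of 0.0351 (edgeR), and with a replicate block -0.32 with 0.0281, so that single settings brought it past that threshold but not past the fold of 1.5.

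*Dhc36C* had a lower estimate as well, with a log2 fold change of -0.30 ± 0.15 (SE, 95% interval -0.63 to 0.03, adjusted *P* = 0.173, edgeR). Most of this rested on 1 library, as the value was -0.06 without control 3. *Dhc98D* behaved likewise, with -0.20 ± 0.11 (SE, 95% interval -0.44 to 0.04, adjusted *P* = 0.205, edgeR) and -0.08 without control 3. For *btv* the estimate was -0.30 ± 0.15 (SE, 95% interval -0.63 to 0.03, adjusted *P* = 0.175, edgeR), and here leaving out control 3 gave a lower value, -0.37. No estimate of a listed gene changed its sign in any alternative, and the median log2 fold change of all genes was 0.01. All of the 5 intervals lay between -0.63 and 0.39.

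**Figure D3:**
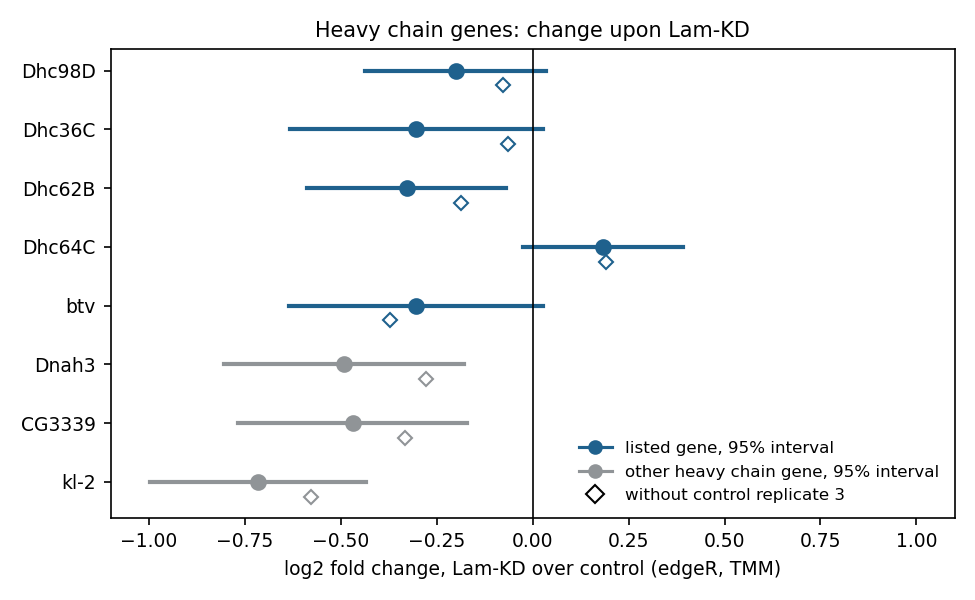
Log2 fold change of Lam-KD over control (horizontal axis, edgeR with TMM normalization) for the 5 listed heavy chain genes that were tested (blue) and 3 other heavy chain genes (grey), with 95% intervals as lines and the estimate without control replicate 3 as open diamonds. *Dhc64C* alone lies above 0. Of the genes below 0, all but *btv* move towards 0 without control 3, and *Dhc36C* and *Dhc98D* come nearest to it. The intervals of *Dhc62B*, *Dnah3*, *CG3339* and *kl-2* lie below 0.

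Other heavy chain genes were read from the same fit. Only *kl-2*, a fertility gene of the Y chromosome that encodes an axonemal heavy chain, was called. It was called lower, as were 3.22% of all genes tested. Its TPM was 3.07, 3.75 and 3.82 in the controls and 2.24, 2.37 and 2.31 upon Lam-KD, a log2 fold change of -0.72 ± 0.13 (SE, adjusted *P* = 0.00555, edgeR), or -0.58 without control 3. Without control 3 the fold of mean TPM no longer exceeded 1.5, and *kl-2* was not called. On log2(TPM + 1) values, limma gave an adjusted *P* of 0.0770 for it. *kl-2* was thus close to *Dhc64C* in control (3.55 ± 0.415 against 3.84 ± 0.443 TPM, SD, n = 3) and below it upon Lam-KD (2.31 ± 0.0682 against 4.66 ± 0.558 TPM). Whether *kl-2* differed in its change from the listed genes was not tested.

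*Dnah3*, on 3L, had the highest mean TPM of the 9 heavy chain genes with values, at 16.7, 19.4 and 22.2 TPM in the controls and 16.1, 15.7 and 13.4 TPM in Lam-KD libraries. *CG3339*, on 3R, was at 1.30, 1.49 and 1.57 TPM against 1.09, 1.21 and 1.07 TPM. In both genes all Lam-KD libraries lay below all controls, as they did for 15.6% of all genes tested. The log2 fold changes were -0.49 ± 0.14 and -0.47 ± 0.14 (SE), with adjusted *P* of 0.0457 and 0.0450 by edgeR, and the fold of mean TPM stayed under 1.5, so that neither was called. The adjusted *P* of *Dnah3* was 0.126 to 0.156 when any single Lam-KD library was left out, and the log2 fold change was -0.28 without control 3. The adjusted *P* of *CG3339* was 0.109 to 0.173 without any single Lam-KD library and 0.0754 without control 3 (edgeR). No values are given for *kl-3*, *kl-5* and *CG9492*, the other heavy chain genes considered, because the identifiers that the gene table gives for them, which can differ between annotation releases, were not matched in the quantification.

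None of the partners of *Dhc64C* was called. Of 18 genes for subunits and cofactors of dynein-1 and dynactin, the complex that links dynein-1 to cargo, 0 were called by edgeR or *DESeq2*. By edgeR, 6.41% of all genes tested were called. An unadjusted *P* under 0.05 was found for 4 of the 18, next to 34.4% of all genes. The log2 fold changes of the 18 lay between -0.36 and 0.39 with a median of 0.16, compared with 0.01 over all genes. Above 0, like *Dhc64C*, were 12 of them, next to 5320 of all 10318 genes tested. Without control 3 the median was 0.08, and 15 were above 0, next to 5209 of all 10246 genes tested. *Lis-1*, a cofactor of the dynein-1 motor, had 0.31 ± 0.11 (SE, adjusted *P* = 0.0733, edgeR) and *sw*, the intermediate chain, 0.22 ± 0.08 (SE, adjusted *P* = 0.101, edgeR). The value of *sw* is uncertain, because the *Sdic* genes next to it carry near-identical sequence. The light chain gene *Dlc90F* went the other way, with -0.36 ± 0.12 (SE, adjusted *P* = 0.0670, edgeR). These 3 genes were chosen after their values were seen.

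Intraflagellar transport, in which the *btv* motor works, was represented by 12 tested genes of 16. Of these, 2 were called lower and 0 higher, next to 3.22% and 3.19% of all genes tested. The median log2 fold change was -0.18 (-0.24 without control 3), compared with 0.01 over all genes. An unadjusted *P* under 0.05 (edgeR) was found for *nompB*, *IFT57*, *IFT52* and *Oseg1*, all lower upon Lam-KD, and for *rempA*, higher. Of all genes tested, 34.4% had one. *IFT52*, *Oseg1* and *rempA* were named after their values were seen. *nompB*, the homolog of IFT88 and part of the particle that enters cilia, was at 9.33, 8.27 and 8.63 TPM in the controls and at 3.74, 4.21 and 5.17 TPM upon Lam-KD. Its libraries were well apart, and the log2 fold change was -1.09 ± 0.16 (SE, adjusted *P* = 0.00180, edgeR). *IFT57* fell as well, with -1.66 ± 0.37 (SE, adjusted *P* = 0.0170, edgeR), but from no more than 27 expected reads per library, and its adjusted *P* was 0.0772 and 0.0620 without Lam-KD replicate 2 or 3. *btv* itself was within the range of the genes in this list that were not called.

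The axonemal heavy chains work with intermediate and light chains, of which 9 of 10 listed genes were tested. Here 1 was called higher and 0 lower, next to 3.19% and 3.22% of all genes tested. The median log2 fold change was -0.28, with 8 of 9 below 0, as for *Dhc98D*, *Dhc36C* and *Dhc62B*. Of all 10318 genes tested, 4998 lay below 0. Without control 3 the median was -0.12, with 7 of 9 below 0, next to 5037 of all 10246 genes tested. An unadjusted *P* under 0.05 (edgeR) was found for *robl22E*, *robl37BC*, *robl62A*, *Dnali1* and *CG1571*, all lower upon Lam-KD, and for *ODA-Dnal1*, higher. Of all genes tested, 34.4% had one. The called gene was *ODA-Dnal1* (*CG8800*), which encodes a light chain of the outer arm. It was at 2.48, 3.13 and 3.84 TPM in the controls and at 20.6, 14.6 and 22.1 TPM upon Lam-KD, the largest change among the dynein genes tested here, with a log2 fold change of 2.50 ± 0.29 (SE, adjusted *P* = 0.000461, edgeR). It rested on 8 to 72 expected reads per library and was between 2.32 and 2.73 when any 1 library was left out. *robl22E*, a light chain gene of the roadblock type, was at 349, 361 and 411 TPM against 297, 315 and 301 TPM, with -0.45 ± 0.12 (SE, adjusted *P* = 0.0318, edgeR), and did not reach the fold threshold. Without control 3 it had -0.30, and with limma on TPM its adjusted *P* was 0.0616 and 0.0673. *robl22E*, *robl37BC*, *robl62A*, *Dnali1* and *CG1571* were named after their values were seen, as was *Zmynd10*.

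Of the factors that assemble axonemal dyneins in the cytoplasm, 7 were tested and 0 were called by edgeR or *DESeq2*. By edgeR, 6.41% of all genes tested were called. At an unadjusted *P* under 0.05 there was 1 factor, next to 34.4% of all genes. This was *Zmynd10*, at 175, 180 and 128 TPM in the controls and 229, 238 and 204 TPM upon Lam-KD, with 0.40 ± 0.09 (SE, adjusted *P* = 0.0210, edgeR). It lay above 0 while the 3 tested axonemal heavy chains of the list lay below. For *robl22E* and *Zmynd10*, the adjusted *P* no longer passed when any single Lam-KD library was left out. With limma on log2(TPM + 0.1), *Zmynd10* had an adjusted *P* of 0.0502. The median over the assembly factors was -0.05 (-0.04 without control 3).

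**Figure D4:**
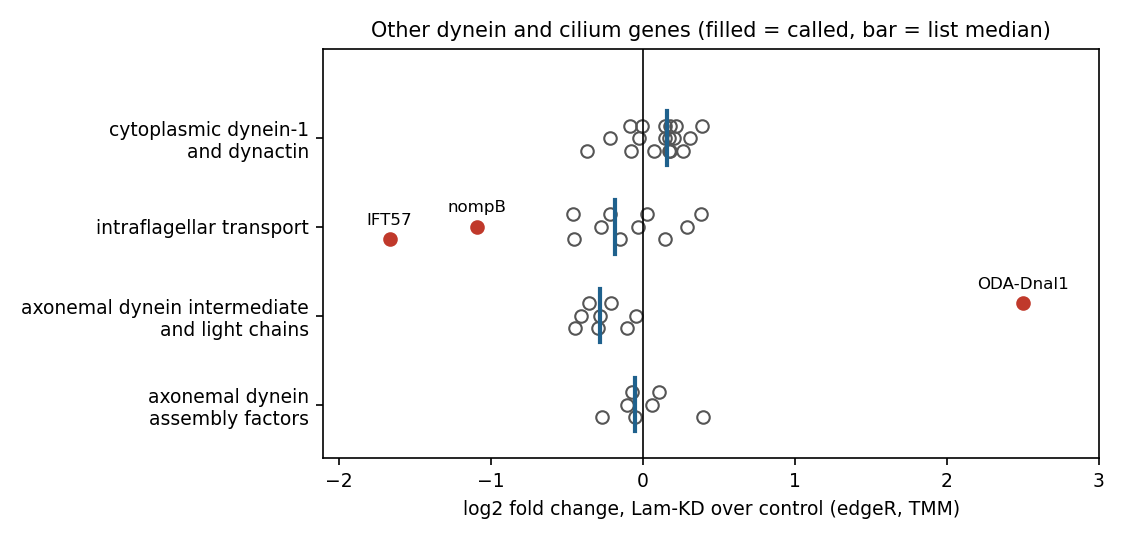
Log2 fold change of Lam-KD over control (horizontal axis, edgeR with TMM normalization) for each tested gene of 4 groups of dynein and cilium genes (rows, with points offset vertically only to separate them). Filled points are called genes, open points are not called, and the blue bar is the median of the group. The dynein-1 and dynactin genes have a median of 0.16, the axonemal intermediate and light chains one of -0.28, and *ODA-Dnal1*, *nompB* and *IFT57* lie far from their groups.

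Marker genes of the cell types that whole testes can hold were read from the same libraries. The summed TPM of 8 SpC markers was 452 to 599 in the controls and 641 to 656 upon Lam-KD. Of the 8, 7 had a higher mean, while the 3 detected axonemal heavy chains of the list had lower means. On the TPM scale the median log2 ratio of means over all genes tested was 0.10, against 0.01 in the edgeR fit. In that fit 6 of the 8 lay above 0, next to 5320 of all 10318 genes. Without control 3, 5 of the 8 did, with a median of 0.10 instead of 0.20. The lowest SpC sum was that of control 3, in which *Dhc36C* and *Dhc62B* were highest. The sum of 3 cyst cell markers was 28.4 to 37.6 and 37.8 to 41.8 TPM, with a higher mean in 3 of 3 genes, as for *Dhc64C*. These 3 also lay above 0 in the edgeR fit. Of them *tj* was called higher (adjusted *P* = 0.0452, edgeR), but not without control 3 or by *DESeq2*. For 2 SpG markers it was 29.5 to 40.7 and 38.4 to 42.9 TPM. The 6 fat body markers reached 5917 to 8852 TPM in the controls and 4732 to 7587 TPM in Lam-KD libraries. Of their means, 2 were higher and 4 lower, and *Lsp1gamma* was called lower (adjusted *P* = 0.0155, edgeR). Fat body RNA was thus abundant in both groups. Neuronal markers summed to 7.74 to 9.65 and 11.7 to 14.9 TPM (5 genes), but they went opposite ways: *Syt1* was called higher (4.45 to 10.3 TPM on average) and *nSyb* lower (3.93 to 1.91 TPM), the latter not without control 3, and 3 means were higher and 2 lower. Muscle markers summed to 4.71 to 5.10 and 4.34 to 4.49 TPM (1 higher and 2 lower means). Among them *Mhc* was called lower (adjusted *P* = 0.0429, edgeR). Hemocyte markers summed to 3.62 to 10.2 and 5.29 to 8.35 TPM (2 higher and 1 lower). Over all genes tested, 6.41% were called by edgeR. No marker was without reads in every library, and the chordotonal channel genes *iav* and *nan* were at 0.0695 and 0.233 TPM on average in control, next to the near absence of *Dhc93AB*. The part of cell composition in the heavy chain values was not tested.

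Annotated neighbors overlap several of the genes, and whether the counting used strand is not given in the sources used here. *CG18808* overlaps *Dhc64C* and was at a mean of 73.2 TPM in control and 58.1 TPM upon Lam-KD, opposite in direction to *Dhc64C*. *CG5674* overlaps *btv* (13.2 and 16.8 TPM) and *CG8001* overlaps *Dhc62B* (132 and 172 TPM), in each case with a difference of means opposite in sign to that of the heavy chain gene. *CG15143* overlaps *Dhc36C* (36.0 and 32.0 TPM), with both means lower upon Lam-KD. No overlapping gene was found for *Dhc98D* and *Dhc93AB*.

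The genes whose log2 CPM (reads per library size, TMM-normalized) followed *Dhc98D* most closely over the 6 libraries were *Dscam1* (Pearson's r = 0.996), *Ufd4* (r = 0.993) and *FBgn0030852*, for which the gene table gave no symbol (r = 0.983). For *Dhc64C* they were *CG10936* (r = 0.981), *CG6418* (r = 0.981) and *CG1523* (r = 0.978). Among all genes tested, 290 had an r over 0.9 with *Dhc98D* and 107 with *Dhc64C*. With 6 libraries from 2 groups, which share depth and composition, these values describe the likeness of the profiles and carry no test.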

How the data were processed

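RNA of whole larval testes was sequenced in 3 control and 3 Lam-KD biological replicates. Libraries were grouped by the genotype in the sample labels. The authors deposited expected counts per gene, which *Salmon* estimated for BDGP5.78 genes without normalization, and TPM, which *Salmon* derived from the same estimates, scaled by transcript length. No column without a sample was used (0 such columns). The series' 8 Lam-DamID libraries were not used here, because the gene positions available are of another build.

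Expected counts were rounded to whole numbers. Genes of 10 or more expected reads in 3 or more libraries were tested with edgeR 4.0.16 in R 4.3.3 (quasi-likelihood test, TMM), and *P* was adjusted by Benjamini-Hochberg over the 10318 genes. *Lam* and *LamC* were left out. A gene was called at an adjusted *P* under 0.05 and a fold of mean TPM over 1.5. The SE of a log2 fold change is its size over the square root of *F*. With 5651960 to 7437111 expected reads per library, genes of a few reads have a wide error, and the detection floor was set at 3 reads. Floors cover counting error only.

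Alternatives were *DESeq2* 1.42.0, RLE size factors, no filter, a replicate block, other call rules, limma 3.58.1 on log2(TPM + 1) and log2(TPM + 0.1), RPKM with TMM, and leaving out each library. The list medians without control 3 were added after the data were seen. Figures used Python 3.11.15 and matplotlib 3.10.9.

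Named were the 7 listed genes, other heavy chain genes, the called genes of 4 lists of dynein and cilium genes, at most 6 per list, and the 3 genes most correlated with *Dhc98D* and with *Dhc64C* (log2 CPM, prior count 2). Of the cell type markers, the called genes were named, and *iav* and *nan*. Other genes outside this rule were picked with their values in view, which the text says beside them. Members and lists were chosen with earlier results of these data known. Symbols and chromosomes came from a Release 6 gene table, matching 13484 of 13776 identifiers, and its coordinates served only to find overlapping genes.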

Additional observations from a re-analysis of the deposited data

How the results depend on the processing

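None of the 5 listed heavy chain genes tested was called under any of the alternatives run. Over all genes, dropping the fold threshold gave 548 higher and 757 lower calls in place of 329 and 332. Leaving out 1 library gave 145 to 495 higher calls and 183 to 325 lower calls, with the fewest without Lam-KD replicate 1 and the most without control replicate 2. Leaving out 1 library, the log2 fold change ranged from -0.4508 to -0.186 for *Dhc62B* (adjusted *P* from 0.0351 to 0.220, edgeR), from -0.45 to -0.06 for *Dhc36C*, from -0.29 to -0.08 for *Dhc98D*, from -0.37 to -0.25 for *btv* and from 0.14 to 0.25 for *Dhc64C*. The cause was not tested.

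With the replicate block, *Dhc62B* had a log2 fold change of -0.3157 with an adjusted *P* of 0.0281 (edgeR), and over all genes 423 were called higher and 404 lower. Deviations from the group means correlated weakly between libraries of the same replicate number, at 0.06, 0.07 and 0.18. Controls 2 and 3 correlated best with their own number, and control 1 with Lam-KD replicate 2 (0.11). Whether replicate numbers pair the libraries was not tested. With limma on TPM, *kl-2*, *CG3339*, *Dnah3* and *robl22E* did not pass an adjusted *P* under 0.05 on either scale, nor did *Zmynd10* on log2(TPM + 0.1) or *Dnah3* with RLE size factors (0.0524). Ranked by RPKM, *Dhc98D* was above 61.2% of genes and *Dhc64C* above 42.2% in control.

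Depth limits *Dhc93AB*, *IFT57* and *btv*, whose libraries hold few reads.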
